A study of Mus musculus with 6 samples.

Results

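Genes of the mature fat cell were followed in RNA from whole mouse eyes: Adipoq, Plin1, Plin4, Fabp4, Cfd, Cidec, Lpl, Lep and Pparg. These 9 members were taken by gene symbol from 22692 listed genes. The later libraries were made from eyes taken 9.0 h after light onset, and the earlier ones 1.5 h after light onset. All 6 came from C57BL/6J mice, an inbred laboratory strain, with no transgene, mutation or treatment named in the labels. Each library held pooled RNA of 5 female mice aged 4 weeks, there were 3 libraries at each time, and poly(A) RNA was copied with random primers. Whether the 3 pools of one time came from separate mice is not stated, and the p-values below therefore rest on a library-to-library spread that may be technical.

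Fat cells store triglyceride in a single large droplet. The nuclear receptor PPARγ, encoded by Pparg, drives their differentiation together with C/EBP factors. Perilipins (Plin1, Plin4) coat the droplet and CIDEC fuses droplets. LPL, secreted and carried to the capillary wall, frees fatty acids from circulating lipoproteins, and FABP4 carries fatty acids inside the cell. Adiponectin (Adipoq), leptin (Lep) and adipsin (Cfd, complement factor D) are secreted. Some of these genes are not specific to fat: Fabp4 is also made by capillary endothelium and macrophages, Lpl by muscle and macrophages, and Pparg by macrophages. The eye itself holds little fat, but orbital fat lies behind the globe.

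The time comparison asks which eye transcripts differ between early and later day. Of the 9 genes, 4 were high enough for the test across genes, and none of these passed between 9.0 h and 1.5 h. The others had an exact permutation test that cannot go below p = 0.1, so it could not pass 0.05. The clearest feature of the 9 genes' values was the spread among libraries of the same time. Adipoq, Cfd, Cidec and Fabp4 differed by 4.94-fold to 15.6-fold between the highest and lowest 1.5 h libraries. At 9.0 h they differed by 2.02-fold to 3.51-fold. For all 4, 1.5 h replicate 1 was lowest and 1.5 h replicate 3 highest, so leaving out either must narrow the 1.5 h spread. Without 1.5 h replicate 1 these genes differed by 1.15-fold to 2.28-fold at 1.5 h, and without 1.5 h replicate 3 by 2.66-fold to 6.83-fold. For Fabp4 the folds were 1.86 and 2.66. These folds were computed after the data were seen. Plin4 spread little at either time.

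Values are RPKM, read counts scaled for gene length and library size. Reading the whole-read steps of low values gave library totals of 24030000 to 31780000 reads at 9.0 h and 12700000 to 28940000 at 1.5 h, with 1.5 h replicates 2 and 3 shallowest. Crystallins, the structural proteins of the lens, took 41.5% to 46.1% of summed RPKM at 9.0 h and 31.4% to 44.3% at 1.5 h, with 1.5 h replicate 1 lowest. Another library also stood apart: in 1.5 h replicate 3 the Y-linked genes Ddx3y, Uty, Kdm5d and Eif2s3y summed to 1.59 RPKM, although the pools are labelled female, while each of the 4 genes was at 0 in every other library. The red cell gene Beta-s had 366.9 RPKM there, against 41.87 to 117.7 RPKM elsewhere. For the tested genes and the main counts, values without these libraries are given beside the results. In bulk RNA, fewer fat cells and less RNA per fat cell cannot be told apart.

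Promoter sequences of 7 of the 9 genes, all but Fabp4 and Lpl, were taken from RefSeq's table for GRCm38.p6, a later build than the mm9 of the deposited values. Each runs from 250 bases before to 50 bases after a start site and is written 5′ to 3′ on the gene's strand. Adipoq, Cfd and Cidec are shown because their values moved together across libraries, and Lep because its promoter holds the full palindrome of a C/EBP site. The windows are chr16:23146286-23146585 (plus strand) for Adipoq, chr10:79890603-79890902 (plus) for Cfd, chr6:113435711-113436010 (minus; the more upstream of 2 listed starts) for Cidec and chr6:29059971-29060270 (plus) for Lep. Capitals mark matches, on either strand, to any of 5 letter patterns. The C/EBP pattern was TTGCNNAA. For PPARγ with RXR the half-site AGGTCA and its repeat spaced by 1 base, AGGTCANAGGTCA, were searched, and each repeat also counts as half-sites. The E-box, bound by the clock activators, was CACGTG. The core promoter box was TATAAA.
Adipoq: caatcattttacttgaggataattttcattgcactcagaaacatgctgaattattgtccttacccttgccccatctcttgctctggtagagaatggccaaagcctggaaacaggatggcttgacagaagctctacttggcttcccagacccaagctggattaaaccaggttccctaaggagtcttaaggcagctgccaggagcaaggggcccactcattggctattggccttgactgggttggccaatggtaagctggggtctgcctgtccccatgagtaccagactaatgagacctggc
Cfd: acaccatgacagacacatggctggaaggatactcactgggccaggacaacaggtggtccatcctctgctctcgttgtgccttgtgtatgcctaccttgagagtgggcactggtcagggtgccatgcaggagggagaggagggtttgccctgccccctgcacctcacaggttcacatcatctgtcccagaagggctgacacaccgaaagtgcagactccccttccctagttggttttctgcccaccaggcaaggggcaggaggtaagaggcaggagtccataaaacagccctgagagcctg
Cidec: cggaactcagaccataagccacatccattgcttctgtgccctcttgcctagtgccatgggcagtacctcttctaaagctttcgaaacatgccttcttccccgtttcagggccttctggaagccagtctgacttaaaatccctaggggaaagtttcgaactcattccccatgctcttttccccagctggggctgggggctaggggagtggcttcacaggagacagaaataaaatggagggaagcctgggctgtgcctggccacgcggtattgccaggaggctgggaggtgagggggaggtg
Lep: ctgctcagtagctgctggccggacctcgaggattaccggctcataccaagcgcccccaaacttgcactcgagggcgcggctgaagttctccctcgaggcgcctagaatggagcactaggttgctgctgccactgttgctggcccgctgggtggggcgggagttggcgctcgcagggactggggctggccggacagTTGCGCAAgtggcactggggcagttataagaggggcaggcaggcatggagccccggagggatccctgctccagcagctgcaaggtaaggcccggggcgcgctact

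The first 3 windows held none of the 5 patterns. The second, less upstream Cidec window, not shown, had a C/EBP match at -198. The Lep window held TTGCGCAA beginning 55 bases before the start site, which matches the C/EBP pattern on both strands. Plin1 had C/EBP matches at -187 and -58, and the window upstream of the third listed Pparg start site had them at -215 and -16. The first Pparg window had the PPARγ half-site at -28, and the second had it at -9 and the core promoter box, on the other strand, at -29. Among 32851 promoter windows of the same length, 10.8% held the C/EBP pattern, 13.6% the core promoter box, 16.3% the PPARγ half-site, 7.15% the E-box and 0.0396% the spaced repeat. The window of Plin4 held none. A match is a description of the letters, and a window without one says only that these letters are not in it.

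By level, Fabp4 and Lpl stood highest, with means of 10.9 and 7.54 RPKM over the 6 libraries. Cfd followed at 3.71 RPKM and Plin4 at 2.34 RPKM. Then came Adipoq (0.739 RPKM), Pparg (0.632 RPKM), Cidec (0.480 RPKM) and Plin1 (0.262 RPKM), and Lep was lowest at 0.0325 RPKM. The ranges of neighbours in this order overlapped except in 2 places. Every library of Plin4 lay above every library of Adipoq, and every library of Plin1 above every library of Lep. Only Fabp4, Lpl, Cfd and Plin4 reached at least 1 RPKM in 3 or more libraries, the filter for the test across genes. The other 5 are given by their values and by an exact permutation test, which cannot go below p = 0.1 with 3 libraries against 3.

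**Figure D1:**
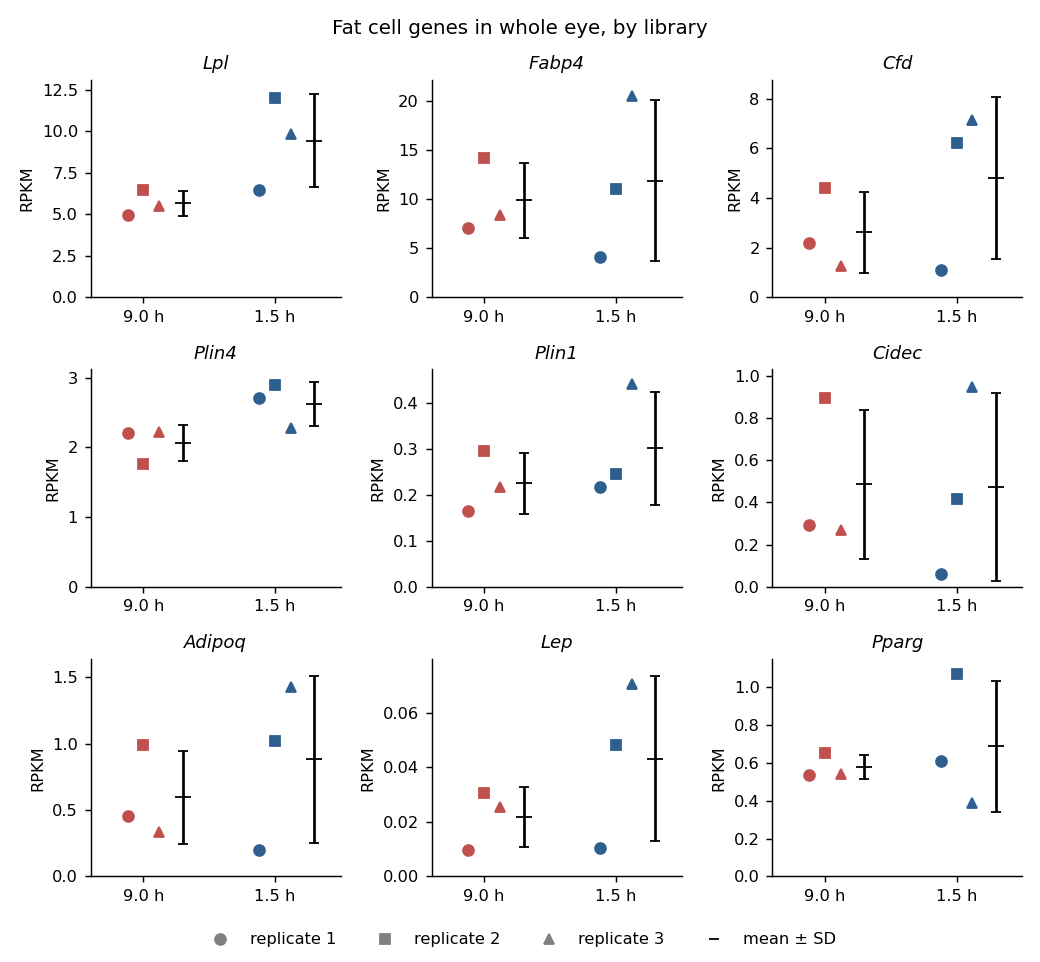
RPKM of each fat cell gene (vertical axes, each from 0) in the 9.0 h libraries (left, red) and the 1.5 h libraries (right, blue); marker shapes are replicates, and bars are the mean ± SD of 3 libraries. In the panels of Adipoq, Cfd, Cidec and Fabp4, 1.5 h replicate 3 is highest and 1.5 h replicate 1 lowest, so the 9.0 h values lie inside the 1.5 h range.

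Of the secreted products, Adipoq had 0.458, 0.994 and 0.337 RPKM in 9.0 h replicates 1 to 3, against 0.196, 1.02 and 1.43 RPKM in 1.5 h replicates 1 to 3. The groups overlapped completely, because the lowest and the highest library were both from 1.5 h. These values stood for 18, 37 and 10 reads at 9.0 h and 7, 16 and 23 reads at 1.5 h. The 95% exact Poisson intervals, which cover counting error only and rest on gene lengths inferred from the values, were 0.0787 to 0.403 RPKM for 1.5 h replicate 1 and 0.907 to 2.15 RPKM for 1.5 h replicate 3. They did not overlap, but they are those of the lowest and the highest library and make no allowance for that choice. Whether counting error alone covers the gap was not tested. The difference of mean log2(RPKM + 0.1), 9.0 h minus 1.5 h, was -0.31 (two-sided exact permutation p = 0.8, n = 3 each).

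Cfd, the complement protease adipsin, had 2.17, 4.41 and 1.26 RPKM in 9.0 h replicates 1 to 3, against 1.08, 6.20 and 7.14 RPKM at 1.5 h. The order of the 6 libraries was the same as for Adipoq, from 1.5 h replicate 3 at the top to 1.5 h replicate 1 at the bottom. Cfd averaged 2.61 ± 1.62 RPKM at 9.0 h and 4.81 ± 3.26 RPKM at 1.5 h (SD, n = 3 each). Its log2 fold change was -0.65 ± 0.90 (SE; limma adjusted p = 0.847), with a 95% interval from -2.98 to 1.68. Without 1.5 h replicate 1 it was -1.49, and without 1.5 h replicates 2 and 3 in turn -0.28 and -0.18. Without 9.0 h replicates 2 and 3 in turn it was -1.10 and -0.24. None of these passed, with limma adjusted p between 0.307 and 0.994.

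Lep, the hormone that reports fat stores to the brain, was close to the limit of the libraries. It had 1, 3 and 2 reads in 9.0 h replicates 1 to 3, against 1, 2 and 3 reads at 1.5 h, which is 0.00963 to 0.0305 RPKM and 0.0106 to 0.0706 RPKM. A library with 0 reads could have held up to 0.0289 to 0.0723 RPKM (3 reads). No difference in Lep between the times can therefore be read from counts this low (log2 difference -0.21, two-sided exact permutation p = 0.3, n = 3 each).

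Of the droplet proteins, Cidec, which enlarges droplets, had the largest ratio between 1.5 h libraries of the 9 genes, set by a lowest library of few reads. It had 0.295, 0.895 and 0.268 RPKM in 9.0 h replicates 1 to 3, against 0.0607, 0.415 and 0.945 RPKM at 1.5 h. The lowest library, 1.5 h replicate 1, had 3 reads (95% exact Poisson interval 0.0125 to 0.177 RPKM), and the highest, 1.5 h replicate 3, had 21 in a library less deeply sequenced (0.585 to 1.45 RPKM). The mean log2 difference was 0.25, the only positive one among the 9 (two-sided exact permutation p = 1, n = 3 each).

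Plin1, the perilipin that gates lipolysis in fat cells, was low and spread less. It had 0.164, 0.294 and 0.216 RPKM in 9.0 h replicates 1 to 3, against 0.216, 0.246 and 0.440 RPKM at 1.5 h. Each library had only 6 to 17 reads, and all 6 Poisson intervals shared the range from 0.220 to 0.301 RPKM. The groups overlapped (log2 difference -0.28, two-sided exact permutation p = 0.5, n = 3 each).

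Plin4, a perilipin of nascent droplets that is made in muscle as well as fat, behaved differently. It had 2.20, 1.76 and 2.22 RPKM in 9.0 h replicates 1 to 3, against 2.70, 2.89 and 2.28 RPKM at 1.5 h. All 3 libraries at 9.0 h lay below all 3 at 1.5 h, although the Poisson intervals of 9.0 h replicate 3 and 1.5 h replicate 3, 1.98 to 2.48 RPKM and 1.95 to 2.64 RPKM, overlapped. Plin4 averaged 2.06 ± 0.26 RPKM at 9.0 h and 2.62 ± 0.31 RPKM at 1.5 h (SD, n = 3 each). The log2 fold change was -0.33 ± 0.18 (SE; limma adjusted p = 0.538; 95% interval -0.73 to 0.06). It was -0.31 without 1.5 h replicate 1 and -0.43 without 1.5 h replicate 3. Plin4 was 1 of 4 tested members without overlap. Over all genes tested, 18.2% did not overlap between the times, 8.41% lower and 9.78% higher at 9.0 h. Plin4 shares 17 exonic bases with Hdgfl2 on the other strand in GENCODE M21, and reads there cannot be assigned if strand was not used in counting.

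Of the genes of fatty acid handling, Fabp4 had 7.00, 14.2 and 8.41 RPKM in 9.0 h replicates 1 to 3, against 4.14, 11.01 and 20.4 RPKM at 1.5 h. As for Adipoq and Cidec, 1.5 h replicate 3 was highest and 1.5 h replicate 1 lowest. These libraries had 171 and 77 reads, and their Poisson intervals of 17.5 to 23.7 RPKM and 3.26 to 5.17 RPKM were far apart. Fabp4 averaged 9.85 ± 3.79 RPKM at 9.0 h and 11.9 ± 8.18 RPKM at 1.5 h (SD, n = 3 each). The log2 fold change was -0.06 ± 0.62 (SE; limma adjusted p = 0.986), with a 95% interval from -1.61 to 1.50. Its sign depended on single libraries: it was -0.67 without 1.5 h replicate 1 and 0.47 without 1.5 h replicate 3.

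Lpl was the member with the most evidence of a difference, and it did not pass. It had 4.98, 6.48 and 5.49 RPKM in 9.0 h replicates 1 to 3, against 6.45, 12.0 and 9.86 RPKM at 1.5 h. The only overlap was between 9.0 h replicate 2 and 1.5 h replicate 1. Lpl averaged 5.65 ± 0.76 RPKM at 9.0 h and 9.43 ± 2.80 RPKM at 1.5 h (SD, n = 3 each). The log2 fold change was -0.69 ± 0.22 (SE; limma adjusted p = 0.275 over 13490 genes; 95% interval without adjustment -1.17 to -0.21). Without 1.5 h replicate 1 it was -0.94 ± 0.17 (limma adjusted p = 2.21e-06), in a fit that called 9.23% of all genes tested. It did not pass without any other single library, with limma adjusted p from 0.351 to 0.860.

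Pparg, the nuclear receptor above these genes, had 0.537, 0.651 and 0.543 RPKM in 9.0 h replicates 1 to 3, against 0.607, 1.07 and 0.386 RPKM at 1.5 h. The 9.0 h libraries lay close together, inside the 1.5 h range. These values stood for 34, 39 and 26 reads at 9.0 h and 35, 27 and 10 reads at 1.5 h, and all 6 Poisson intervals shared the range from 0.704 to 0.710 RPKM. The log2 difference was -0.13 (two-sided exact permutation p = 0.8, n = 3 each).

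Of the 4 tested members 0 passed a limma adjusted p of 0.05, against 0.222% of all genes tested (30 of 13490; 0.148% higher and 0.0741% lower at 9.0 h). At an unadjusted p of 0.05 there was 1, Lpl, against 11.1% of all genes. The 4 fold changes were all below 0, with a median of -0.49, against -0.003 for all genes tested, of which 6826 were below 0 and 6664 above. Leaving out 1.5 h replicate 1 gave a median of -0.80, and leaving out 1.5 h replicate 2 gave -0.27. With 1.5 h replicate 3 or 9.0 h replicate 3 left out it was -0.31. Over all genes, 4, 10 and 2 were called with 9.0 h replicates 1, 2 and 3 left out in turn, and 1245, 61 and 13 with the 1.5 h replicates left out in the same way. When no filter was set, all 9 could be fitted and none passed (limma adjusted p from 0.351 to 0.988), against 0.154% of the 18862 genes fitted.

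**Figure D2:**
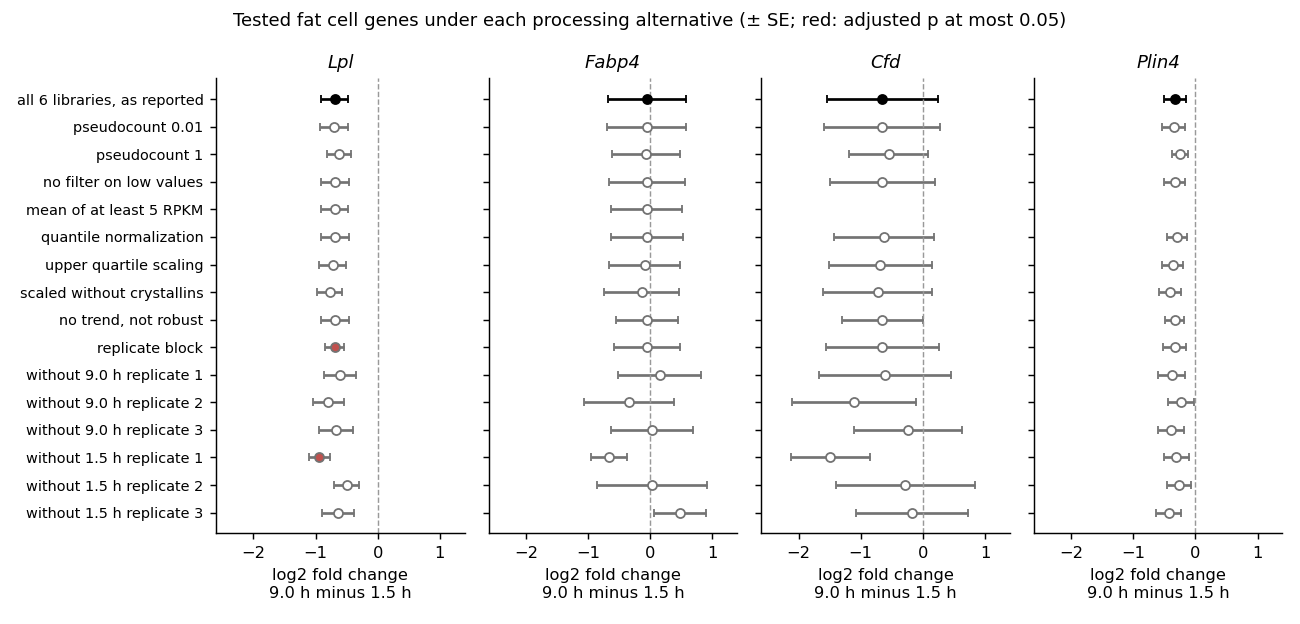
Log2 fold change, 9.0 h minus 1.5 h, of the 4 tested fat cell genes (horizontal axes, ± SE) with all 6 libraries and under each processing alternative (rows); red fill marks a limma adjusted p of at most 0.05. Lpl stays between -0.94 and -0.50 and is filled in 2 rows, while Fabp4 lies on either side of 0.

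The spread among replicates separated the members. The SD of log2(RPKM + 0.1) among the 1.5 h libraries was 1.46 for Cfd, 1.36 for Cidec, 1.26 for Adipoq and 1.15 for Fabp4, against a median of 0.23 over all genes tested. At 9.0 h the same genes had 0.87, 0.80, 0.69 and 0.52, against a median of 0.14. Cidec and Adipoq were under the filter and so are not among the genes behind these medians. In 1.5 h replicate 1 they had 3 and 7 reads. Of all genes tested, 99.7% had a smaller SD than Cfd at 9.0 h and also at 1.5 h, and 99.1% and 99.5% had a smaller SD than Fabp4. Lpl had 0.19 and 0.45 at 9.0 h and 1.5 h, above 71.0% and 88.0% of genes, and Plin4 0.18 and 0.17, above 67.6% and 33.7%. For low genes such as Lep the added 0.1 RPKM holds the SD down.

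**Figure D3:**
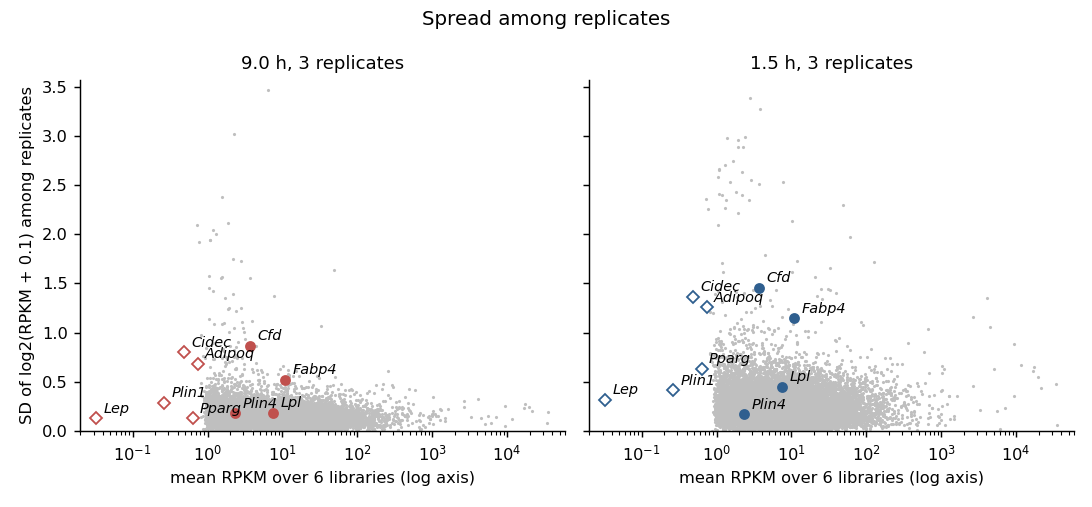
SD of log2(RPKM + 0.1) among 3 replicates against mean RPKM (log axis) for all genes tested (grey dots) and the fat cell genes (filled circles: tested; open diamonds: under the filter) at 9.0 h (left) and 1.5 h (right). Cfd and Fabp4 lie above nearly all genes of their level in both panels, and Plin4 within the bulk.

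Within libraries, the members kept some ratios and not others. Cfd stood at 3.74 to 4.75 times Adipoq at 9.0 h and 4.99 to 6.09 times at 1.5 h, although both genes moved more than 6-fold over the libraries. Lpl stood at 6.51 to 16.3 times Adipoq at 9.0 h and 6.89 to 32.9 times at 1.5 h. Plin4 stood at 5.99 to 13.5 times Plin1 at 9.0 h and 5.18 to 12.5 times at 1.5 h. The centred log2 profiles of Adipoq and Cfd over the 6 libraries differed by a root mean square of 0.26, those of Adipoq and Fabp4 by 0.29, and those of Cfd and Plin4 by 1.07. For 7 of the 9 members the 3 highest libraries were 1.5 h replicates 2 and 3 and 9.0 h replicate 2. The exceptions were Plin4 and Pparg. For Plin1, Lep and Pparg the Poisson intervals of all 6 libraries overlapped, for Pparg only between 0.704 and 0.710 RPKM. Whether counting error alone covers the order of their libraries was not tested. Of all genes tested, 13.4% had these 3 libraries on top.

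The other tested genes with the profile nearest to that of Cfd, the 1 tested gene among Adipoq, Plin1, Cidec and Cfd, included genes of myelin. Likeness was the root mean square difference of centred log2 profiles over the 6 libraries, among 13486 genes. The nearest was Tmem88b (0.16), followed by Mbp, myelin basic protein (0.24), Tspan2, a tetraspanin of myelinating glia (0.40), and Ppp1r14a (0.42). Ugt8a, which makes the myelin lipid galactosylceramide, had 0.46, and Mir3064, Hspb3 and Gatm had 0.50, 0.53 and 0.54. Mbp had 19.9, 52.0 and 12.0 RPKM in 9.0 h replicates 1 to 3, against 9.44, 41.7 and 63.0 RPKM at 1.5 h. Its 1.5 h replicate 3 stood 6.68-fold above 1.5 h replicate 1, where Cfd stood 6.60-fold and Adipoq 7.31-fold above.

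**Figure D4:**
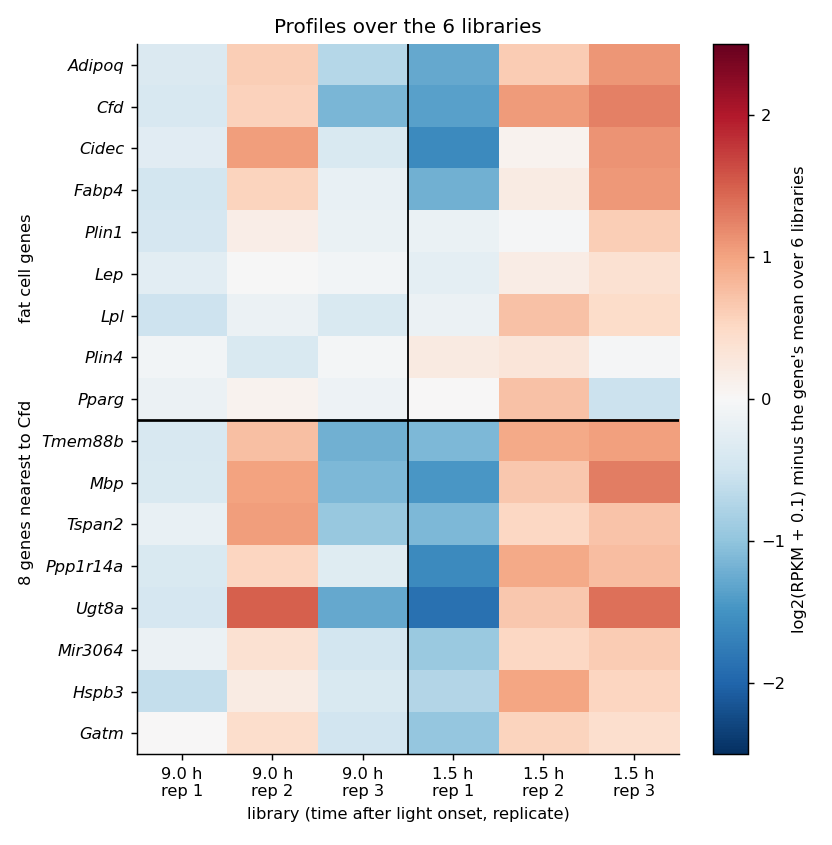
Log2(RPKM + 0.1) of each gene minus its mean over the 6 libraries (colour) for the 9 fat cell genes (above the line) and the 8 genes nearest to Cfd (below it), with the 9.0 h libraries left of the 1.5 h ones. Adipoq, Cfd, Cidec, Fabp4 and the 8 genes except Tmem88b are lowest in 1.5 h replicate 1. Tmem88b is lowest in 9.0 h replicate 3. Plin1, Plin4, Lpl, Lep and Pparg are lowest in other libraries than 1.5 h replicate 1.

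A list of 15 myelin genes, written after that result was seen, was then read in the same libraries. In 12 of the 15, the 3 highest libraries were 1.5 h replicates 2 and 3 and 9.0 h replicate 2, and 12 were lowest in 1.5 h replicate 1. These counts include Mbp, Ugt8a and Cnp, which comparisons of profiles had already picked. Among the other 12 genes the counts were 9 and 9. Of all genes tested, 13.4% had the same 3 libraries on top, and 8.3% had both these on top and 1.5 h replicate 1 lowest. Summed over the list of 15, the genes had 329.0, 511.6 and 318.5 RPKM in 9.0 h replicates 1 to 3, against 242.4, 452.6 and 457.3 RPKM at 1.5 h. Mal was the largest part of every sum, with 190.7, 235.2 and 212.2 RPKM at 9.0 h, against 163.8, 210.3 and 162.8 RPKM at 1.5 h. Mal was lowest in 1.5 h replicate 3. Mog, made by oligodendrocytes, the myelin cells of the optic nerve, had 1.05, 5.22 and 0.389 RPKM at 9.0 h, against 0.0807, 2.44 and 3.77 RPKM at 1.5 h. Prx, of peripheral myelin, had 3.39 to 4.15 RPKM at 9.0 h and 2.42 to 3.63 RPKM at 1.5 h. None of the 15 was called between the times by limma, and their median log2 fold change was 0.07. The part of these genes' source tissue in the fat cell values was not tested.

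Markers of other cell types, some of which make a few of the 9 genes, were read beside them. Summed endothelial markers (10 genes) ran from 92.3 to 105.1 RPKM at 9.0 h and from 90.7 to 109.0 RPKM at 1.5 h. Summed macrophage markers (9 listed genes) ran from 135.6 to 151.2 RPKM at 9.0 h and from 144.7 to 182.2 RPKM at 1.5 h. Fibroblast markers (9 genes) ran from 1375 to 1784 RPKM at 9.0 h and from 802.0 to 1531 RPKM at 1.5 h. Skeletal muscle markers (12 genes) ran from 1595 to 1845 RPKM at 9.0 h and from 958.5 to 1801 RPKM at 1.5 h, and Tcap, a sarcomere protein, was the 1 called marker (log2 fold change 1.31, limma adjusted p = 0.0224). For each of these 4 lists, 1.5 h replicate 1 was the lowest 1.5 h library. That library also had the lowest summed RPKM over all genes, 393433 against 484249 and 490387 in 1.5 h replicates 2 and 3. Not every gene followed its list. The endothelial markers Kdr and Egfl7 and the fibroblast marker Pi16 were highest of the 1.5 h libraries in replicate 1. Tie1, Csf1r, Cd14, Col3a1 and Fbn1 were lowest of the 1.5 h libraries in replicate 2, and Cd68, Lyz2 and Tcap in replicate 3. The summed level of Adipoq, Plin1, Cidec and Cfd ran from 2.08 to 6.60 RPKM at 9.0 h and from 1.55 to 9.95 RPKM at 1.5 h.

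Markers of brown fat, which burns lipid for heat, were measured beside the white fat genes. Ucp1, its defining protein, was listed at 0 in 9.0 h replicates 1 and 2 and had 0.0504 RPKM in 9.0 h replicate 3, against 0.0419 to 0.0932 RPKM at 1.5 h. Ucp1 was under the filter and its reads were not recovered, so no difference between the times can be read from values this low. Summed over 8 genes the list had 20.9 to 25.1 RPKM at 9.0 h and 21.7 to 37.1 RPKM at 1.5 h. Its highest gene was Cox7a1, a respiratory chain subunit also made in muscle, with 8.31 to 13.7 RPKM at 9.0 h and 8.84 to 20.1 RPKM at 1.5 h. Markers of sebaceous and Harderian glands, the lipid glands of lid and orbit, summed to 5.58 to 8.86 RPKM at 9.0 h and 4.93 to 8.14 RPKM at 1.5 h over 9 genes, with Awat1 at 0 in all libraries. Fa2h, in both this list and the myelin list, had 0.768, 2.60 and 0.549 RPKM at 9.0 h, against 0.152, 1.23 and 2.03 RPKM at 1.5 h. Blood markers had 6 listed genes, of which 4 were at 0 in all libraries. The other two, Beta-s and Alas2, summed to 85.5 to 120.2 RPKM at 9.0 h and 43.7 to 374.7 RPKM at 1.5 h. The part of these cells in the fat cell values was not tested.

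The wider fat pathway was read from 7 lists, of which 62 genes could be tested. None was called, against 0.222% of all genes tested, and 9 of the 62 had an unadjusted limma p of at most 0.05, against 11.1% of all genes tested. Triglyceride synthesis had 14 tested genes with a median log2 fold change of -0.08. Dgat2, which makes the last step to triglyceride, had 18.5, 18.4 and 21.4 RPKM in 9.0 h replicates 1 to 3, against 13.9, 11.7 and 13.2 RPKM at 1.5 h (log2 fold change 0.58 ± 0.14 SE, limma adjusted p = 0.151). Acly, which supplies cytosolic acetyl-CoA, had -0.26 and did not overlap either, and Me1, a source of NADPH, had 0.36.

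Lipolysis had 5 tested genes (median -0.09), with Pnpla2, the first triglyceride lipase, at 0.36, and Mgll, the monoglyceride lipase, at -0.27. Other droplet coats had 6 (median 0.18), with Plin2 at -0.01 and Plin3 at 0.21. Plin2 and Plin3 had 11.6 to 12.3 RPKM and 14.2 to 16.7 RPKM at 9.0 h, against 10.7 to 14.6 RPKM and 12.0 to 14.6 RPKM at 1.5 h. These perilipins of most cell types thus stood above Plin1 and Plin4 in every library. Fatty acid and glucose uptake had 9 (median 0.08), led in level by Fabp5, the fatty acid carrier of epithelia and neural tissue. It had 1165 to 1273 RPKM at 9.0 h and 569.2 to 949.8 RPKM at 1.5 h (log2 fold change 0.61 ± 0.21 SE, limma adjusted p = 0.332).

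The partners of lipoprotein lipase had 6 tested genes (median 0.06), such as the maturation factors Lmf1 and Lmf2 at 0.06 and 0.09. Gpihbp1, the endothelial protein that holds LPL at the capillary wall, is named after its values were seen, since its direction was opposite to that of Lpl. It had 1.93, 2.20 and 3.23 RPKM in 9.0 h replicates 1 to 3, against 0.994, 1.48 and 1.73 RPKM at 1.5 h (log2 fold change 0.77 ± 0.25 SE, limma adjusted p = 0.287). PPARγ partners and adipogenic factors had 15 (median -0.13), with the partner receptors Rxra and Rxrb at 0.12 and 0.21 and the lipogenic factor Srebf1 at 0.02. The coactivator Ppargc1a had 3.40 to 3.86 RPKM at 9.0 h and 4.95 to 6.29 RPKM at 1.5 h, a log2 fold change of -0.58 ± 0.16 (SE; limma adjusted p = 0.192).

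Adipokines and their receptors had 7 tested genes (median -0.07), with the adiponectin receptors Adipor1 and Adipor2 at 0.20 and -0.07. Adipor1 had 281.0 to 305.3 RPKM at 9.0 h and 240.5 to 269.5 RPKM at 1.5 h, far above its ligand in every library. The leptin receptor Lepr, named after its values were seen, had 0.669 to 0.733 RPKM at 9.0 h and 0.436 to 0.875 RPKM at 1.5 h. Without 1.5 h replicate 1, 6 of the 62 genes were called by limma, against 9.23% of all genes: Cd36 (-1.11), Scd1 (-0.92) and Ppargc1a (-0.65) lower, and Dgat2 (0.63), Fitm2 (0.57) and Cebpb (0.50) higher at 9.0 h.

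**Figure D5:**
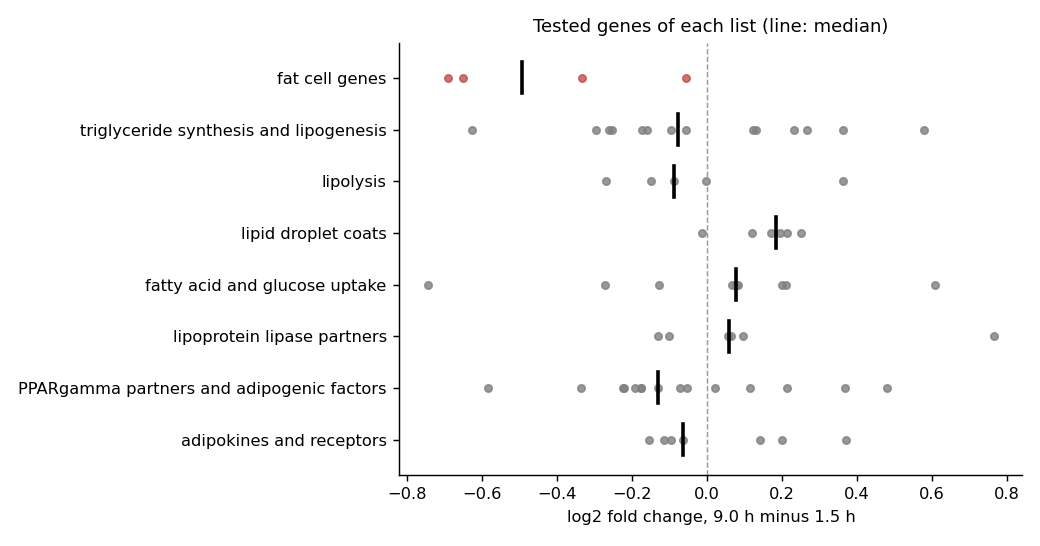
Log2 fold change, 9.0 h minus 1.5 h (horizontal axis), of every tested gene (dots) in the fat cell genes (red, 4 genes) and 7 lists of the wider fat pathway (grey), with the median of each as a line. The 4 fat cell genes have a median of -0.49 and the 7 lists have medians between -0.13 and 0.18.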

How the data were processed

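RNA-seq was done on whole eyes, 3 libraries at each of 2 times. The authors deposited 1 table of RPKM values per library; the unit was taken from the values, since the file headers name only the sample. The tools and build named there, per the submitters' processing notes, are GSNAP, HTSeq and mm9. No source used here states the versions, the annotation, the strand setting or how reads with several matches were handled.

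RPKM was tested with limma 3.58.1 in R 4.3.3 (eBayes with trend and robust settings) on log2(RPKM + 0.1), over the 13490 genes that reached 1 RPKM in 3 or more libraries, two-sided, with Benjamini-Hochberg adjustment over all of them and calls at 0.05. The fit was tested on simulated data. Fold changes are on this log scale, which understates changes of low genes. Members under the filter had exact permutation tests.

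Reads were recovered in 2 steps. In genes with 1 annotated transcript length (GENCODE M21), low values multiplied by length fell within 0.1 read of whole numbers for 71.3% to 74.6% of values, against 11.1% to 14.0% at other totals, which gave each library's total. Each member's length was then the one at which all 6 libraries gave whole reads, to within 0.028 read, taking the shortest such length. None of the 9 lengths is that of a GENCODE M21 transcript; that of Fabp4 lies below its shortest one and those of Plin4, Cfd and Lep above their longest. A true length that is a multiple would raise the read counts and narrow the intervals. No member had a transcript of another gene at 95% identity over 200 bases (minimap2 alignments).

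The members, lists and tests were chosen with earlier results of these data known. Named genes were, beside the members, the called or else the 3 highest members of each list, and the 8 genes nearest to the fat profile; not all are shown. Alternatives changed the pseudocount, filter, scaling, variance model, pairing and libraries.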

Additional observations from a re-analysis of the deposited data

How the results depend on the processing

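The number of genes called by limma, 30, was 15 with a minimum mean of 5 RPKM, 15 after quantile normalization and 16 after upper quartile scaling. It ran from 2 to 1245 when 1 library was left out; the cause was not tested. Replicate numbers were not taken as pairs: deviations of same-numbered libraries from their time's mean correlated across genes with r = 0.347, 0.484 and -0.215, and 9.0 h replicate 3 correlated best with another number. With replicate number as a block, 141 genes and 1 member were called, Lpl (-0.69, limma adjusted p = 0.0439). Leaving out libraries gave 0 to 1 members called and 0 to 6 genes of the pathway lists, in both cases the higher number without 1.5 h replicate 1. The median log2 fold change of tested members ran from -0.80 to -0.27 over these. Fabp4 ran from -0.67 to 0.47 over these, above 0 when 9.0 h replicate 1 (0.16) or 3 (0.02), or 1.5 h replicate 2 (0.03) or 3 (0.47), was left out. Cfd and Plin4 kept their direction and passed under no alternative run. No member under the filter changed sign with a pseudocount of 0.01 or 1. Under the 3 scalings tried the 4 tested members stayed below 0. Depth limits Lep, with 1 to 3 reads a library, and Cidec, with 3 reads in 1.5 h replicate 1.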

Other observations

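Pck1 and Myh13, named after their values were seen, had the same 3 highest libraries as Adipoq and Cfd, as did 13.4% of all genes tested. Pck1 was under the filter, and the reads behind its low values were not recovered. Pck1, the glycerol-making enzyme of fat cells, had 0.0959, 0.367 and 0.0158 RPKM in 9.0 h replicates 1 to 3, against 0.0526, 0.570 and 0.849 RPKM at 1.5 h. Myh13, the myosin of extraocular muscle, had 0.350, 1.35 and 0.321 RPKM in 9.0 h replicates 1 to 3, against 0.231, 4.99 and 4.29 RPKM at 1.5 h (log2 fold change -1.58, limma adjusted p = 0.736). Myh4, a fast skeletal myosin also named after its values were seen, did not show such a range, with 31.1 to 36.5 RPKM at 9.0 h and 17.4 to 33.8 RPKM at 1.5 h.

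With the mean profile of Adipoq, Plin1, Cidec and Cfd in place of that of Cfd, a choice added after the data were seen, the nearest of 14569 genes with a mean of at least 0.5 RPKM included Mir3064 (root mean square difference 0.22), Ripply2 (0.26), Cnp (0.26), Actc1 (0.27), Tspan2 (0.27), Gatm (0.31) and Gpr37l1 (0.31). Mir3064, Tspan2 and Gatm were also among the 8 nearest to Cfd. Cnp, an enzyme of myelin, had 13.1, 22.8 and 9.94 RPKM in 9.0 h replicates 1 to 3, against 8.20, 16.5 and 21.3 RPKM at 1.5 h.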
